A study of Mus musculus with 9 samples.

Results

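CC chemokine ligands are small secreted proteins whose first conserved cysteines are adjacent, and they steer leukocytes that carry CC chemokine receptors. The 10 ligands described here were taken by gene symbol from the 19505 genes of the array table, and each was measured by 1 probe set. They form 3 classes. Ccl17, Ccl22 and Ccl24 are ligands that interleukin 4 (IL-4) is known to induce in macrophages. Ccl2, Ccl3, Ccl4, Ccl7 and Ccl8 are inflammatory ligands. Ccl6 and Ccl9 are made by mouse macrophages without an inflammatory stimulus. Of the 10 ligands, 9 were bright enough to be tested, and Ccl8 was not.

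The cells were macrophages grown for 7 days from bone marrow of wildtype C57BL/6 mice in 10% serum with macrophage colony-stimulating factor (M-CSF), given as 10 ng/ml in one protocol and 20 ng/ml in another. Every group then received IL-4 at 20 ng/ml for 24 h, so the arrays hold no macrophages without IL-4 and the induction itself cannot be measured. The vehicle group had no lipocalin 2 (LCN2), an innate defence protein that sequesters siderophore-bound iron from bacteria. The LCN2 day 7 group received LCN2 with the IL-4, its dose unstated for that group, and the LCN2 day 0 group received 150 ng/ml from day 0. Each group has 3 arrays, numbered 1 to 3 in the titles. The labels do not say whether these came from separate mice or cultures, so the p-values rest on a spread between arrays that may be technical only.

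In macrophages, IL-4 binds a receptor containing IL4RA, which activates the transcription factor STAT6, and STAT6 works with factors such as IRF4, EGR2 and PPARG. CCL17 and CCL22 both bind CCR4, found on Th2 and regulatory T cells. CCL24, also called eotaxin-2, binds CCR3 on eosinophils. The inflammatory ligands depend more on NF-kB: CCL2 and CCL7 attract monocytes through CCR2, CCL3 and CCL4 attract monocytes and T cells, and mouse CCL8 binds CCR8. CCL6 and CCL9 bind CCR1.

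Promoter windows of 250 bases before the annotated start were held for 6 of the 10 ligands in the RefSeq table of the GRCm38.p6 assembly, among them Ccl17, Ccl22, Ccl6 and Ccl9, shown because each is an IL-4 induced or constitutive ligand whose array values are compared further on. Each is written from 5′ to 3′ on the strand of its gene, with motif matches in capitals.
Ccl17 (chr8:94810203-94810452, plus strand): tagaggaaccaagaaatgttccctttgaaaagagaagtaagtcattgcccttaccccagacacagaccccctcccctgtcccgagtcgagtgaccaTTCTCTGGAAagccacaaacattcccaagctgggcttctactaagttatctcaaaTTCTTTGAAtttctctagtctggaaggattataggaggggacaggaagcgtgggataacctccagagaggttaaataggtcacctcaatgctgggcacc
Ccl22 (chr8:94745434-94745683, plus strand): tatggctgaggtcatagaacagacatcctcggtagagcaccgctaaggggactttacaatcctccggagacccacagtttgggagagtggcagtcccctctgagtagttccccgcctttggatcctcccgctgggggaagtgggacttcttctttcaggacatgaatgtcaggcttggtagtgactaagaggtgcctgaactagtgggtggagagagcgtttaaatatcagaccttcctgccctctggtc
Ccl6 (chr11:83593088-83593337, minus strand): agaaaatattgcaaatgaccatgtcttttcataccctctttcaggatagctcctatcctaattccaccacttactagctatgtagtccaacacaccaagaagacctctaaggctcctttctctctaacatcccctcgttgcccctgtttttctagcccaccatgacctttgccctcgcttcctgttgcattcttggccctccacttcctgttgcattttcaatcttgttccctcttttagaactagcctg
Ccl9 (chr11:83578637-83578886, minus strand): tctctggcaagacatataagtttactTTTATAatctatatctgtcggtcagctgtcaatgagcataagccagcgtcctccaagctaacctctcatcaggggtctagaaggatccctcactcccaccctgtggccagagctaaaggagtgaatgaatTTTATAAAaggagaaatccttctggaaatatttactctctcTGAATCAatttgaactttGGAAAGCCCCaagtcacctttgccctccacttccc
The motifs searched on both strands were the STAT6 type (TTC and GAA separated by 4 bases), the type of other STATs (TTC and GAA separated by 3 bases), AP-1 (TGANTCA), the TATA box (TATAAA) and kappa B. Ccl17 held 1 STAT6-type match, 154 to 145 bases before the start, and 1 match of the other STAT type, 99 to 91 bases before it. The STAT6 type was present in 5.85% and the other type in 7.02% of all 32851 windows of this length. The Ccl17 window lies inside a longer RefSeq model of the gene. Ccl9 held 1 AP-1 match, 1 kappa B match and 3 TATAAA matches, of which 2 overlap each other on opposite strands, against shares of 6.75%, 7.25% and 12.4% of all windows. Neither Ccl22 nor Ccl6 held a match to any of the 5 motifs in this window. Windows of the inflammatory ligands Ccl3 and Ccl8 were also held but are not printed. Ccl3 held no match to any of the motifs, and Ccl8 only 1 TATAAA match, 32 to 27 bases before the start. No window was held for Ccl2, Ccl4, Ccl7 or Ccl24. Ccl22 and Ccl17 lie on chromosome 8 with Cx3cl1 between them. Ccl2 and Ccl7 are adjacent on chromosome 11, as are Ccl9, Ccl6, Ccl3 and Ccl4 in that order, whereas Ccl24 is on chromosome 5 beside Ccl26.

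Levels are log2 values as deposited, so a difference of 1 is a 2-fold change, and they ran from 2.51 to 13.49 with array medians of 5.60 to 5.69. Only differences are compared between genes. A macrophage marker list had no dim gene: the mean of its 7 genes was 10.19 to 10.52 on the 9 arrays. All 5 T and NK cell markers and all 3 B cell markers in the table were dim, that is, below the median of probe-set means (5.66). The 3 arrays numbered 1 stood apart from the other 6, and the first principal component carried 62.5% of the variance. Results that touch this are therefore given within each number as well. A probe set reads RNA from the whole culture, so fewer cells of a type and less RNA per cell cannot be told apart.

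**Figure D1:**
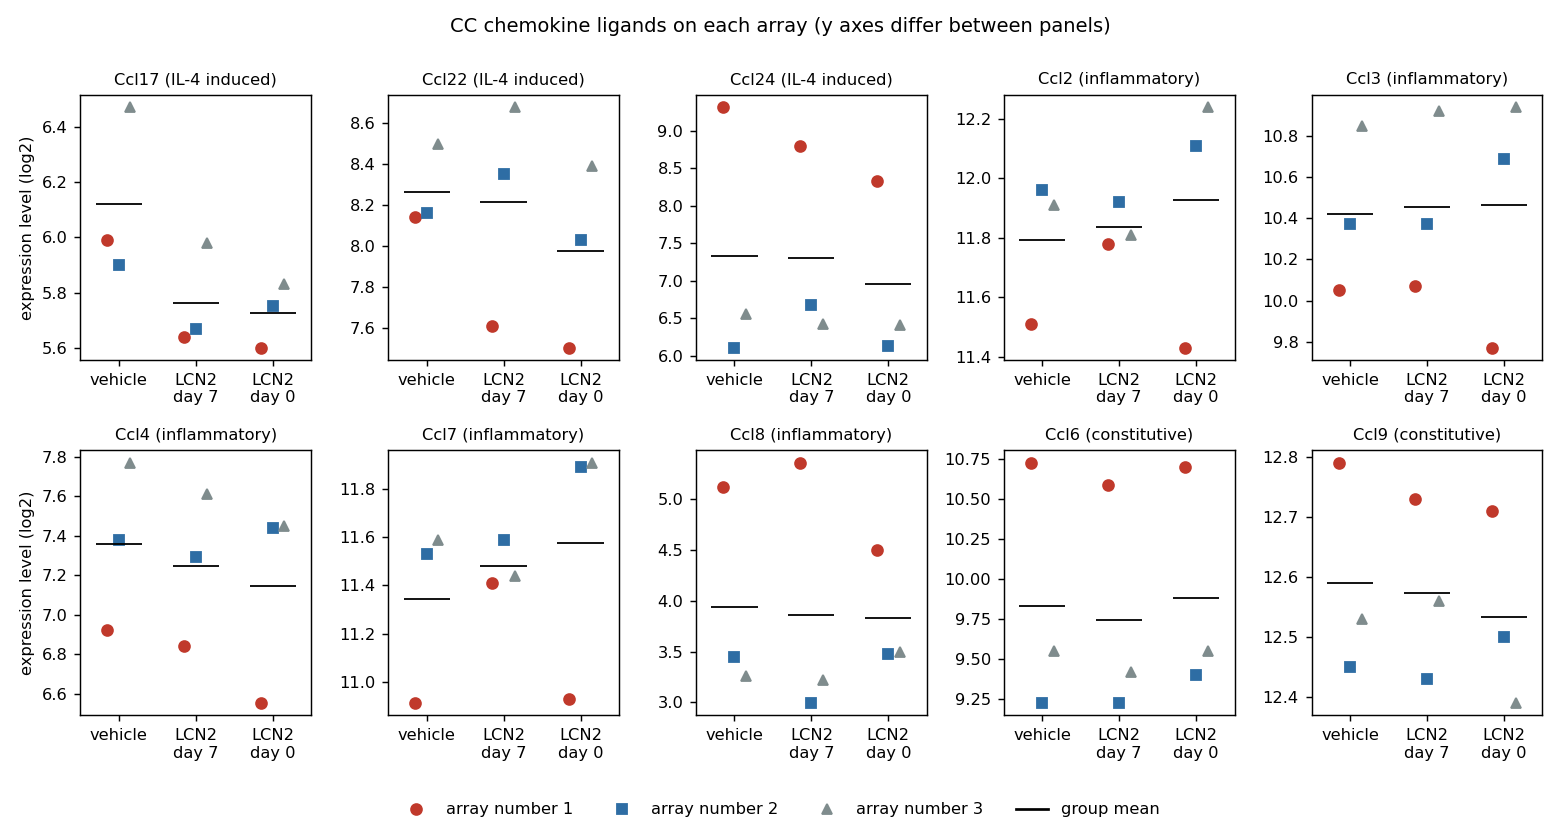
Expression level (log2) of each of the 10 ligands on the 9 arrays, by group on the horizontal axis, with the array number as colour and shape and a line at the group mean. The arrays numbered 1 were the highest of their group for Ccl24, Ccl8, Ccl6 and Ccl9 and the lowest for Ccl22, Ccl2, Ccl3, Ccl4 and Ccl7, while for Ccl17 the array numbered 3 was the highest in each group.

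The first comparisons ask whether LCN2, given on day 7 or from day 0, changed the ligands of IL-4 treated macrophages. No ligand passed the test in either comparison. This was so for every gene on the array: limma with Benjamini-Hochberg adjustment called 0% of the 10042 tested genes for LCN2 day 7 against vehicle, 0% for LCN2 day 0 against vehicle and 0% for the 2 LCN2 groups against each other. At an unadjusted p under 0.05 there were 70, 142 and 177 genes in these comparisons, and 259, 497 and 539 with the array number as a block. The 9 tested ligands had a median difference from vehicle of -0.0299 for LCN2 day 7 and -0.057 for LCN2 day 0, against medians over all genes of 0.00253 and -0.0147. Both comparisons share the vehicle arrays.

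Ccl17, the CCR4 ligand, was the ligand with the lowest difference from vehicle under both LCN2 schedules. On the vehicle arrays numbered 1, 2 and 3 its level was 5.99, 5.90 and 6.47. The LCN2 day 7 arrays read 5.64, 5.67 and 5.98, and the LCN2 day 0 arrays 5.60, 5.75 and 5.83. All 3 LCN2 day 0 arrays thus lay below all 3 vehicle arrays, which held for 3.44% of all genes in that direction, while the LCN2 day 7 arrays overlapped the vehicle arrays at number 3. The difference was -0.36 ± 0.17 (SE; 95% interval -0.74 to 0.02; limma adjusted p = 1) for LCN2 day 7 and -0.39 ± 0.17 (-0.78 to -0.01; limma adjusted p = 0.999) for LCN2 day 0. These are 1.28-fold and 1.31-fold lower. Within numbers 1, 2 and 3 the differences were -0.35, -0.23 and -0.49 for LCN2 day 7 and -0.40, -0.15 and -0.64 for LCN2 day 0, so all 6 same-number differences were below 0. This was so for no other ligand and for 3.12% of all genes, and both sets of differences use the same vehicle arrays. With the number as a block the intervals were -0.61 to -0.11 and -0.64 to -0.15, and the limma adjusted p was 0.999 for LCN2 day 7 and 0.944 for LCN2 day 0. Over all alternative settings the adjusted p for LCN2 day 0 went no lower than 0.746, so the Ccl17 difference did not pass under any of them. Levels of Ccl17 lay close to the limit for dim genes, 5.66, with 2 LCN2 arrays below it.

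Dendritic cells also make CCL17, and their markers are given beside it. The mean of the 10 dendritic cell markers, 5 of them dim, was 6.84 to 7.02 on the vehicle arrays, 6.82 to 6.95 on the LCN2 day 7 arrays and 6.60 to 6.81 on the LCN2 day 0 arrays. Of the 5 that were tested, H2-Ab1, an MHC class II chain, had the lowest difference between LCN2 day 0 and vehicle (-0.67 ± 0.25, limma adjusted p = 0.999). Ccr7 had the highest (0.18 ± 0.17) and was the only tested marker above vehicle. Over all 10 markers, 3 were above vehicle and 7 below. Irf4, a factor downstream of IL-4 and also a dendritic cell gene, differed by -0.48 ± 0.32 (limma adjusted p = 0.999). None of the list passed the test, and the part of these genes in the Ccl17 values was not tested.

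Ccl22, which shares its receptor and its stretch of chromosome with Ccl17, read 8.14, 8.16 and 8.50 on the vehicle arrays numbered 1 to 3. Its levels were 7.61, 8.35 and 8.68 on the LCN2 day 7 arrays and 7.50, 8.03 and 8.39 on the LCN2 day 0 arrays. The groups overlapped, and the differences from vehicle were -0.05 ± 0.29 (95% interval -0.72 to 0.61) and -0.29 ± 0.29 (-0.96 to 0.37). These intervals narrowed to -0.39 to 0.28 and -0.63 to 0.04 with the number as a block, and neither difference passed. At number 1 the LCN2 arrays were lower than vehicle by the largest amounts, -0.53 for LCN2 day 7 and -0.64 for LCN2 day 0. At numbers 2 and 3 the LCN2 day 7 values were 0.19 and 0.18 above vehicle and the LCN2 day 0 values -0.13 and -0.11 from it.

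Ccl24, the eosinophil attractant, had the widest spread of the 10 ligands. The vehicle arrays numbered 1 to 3 read 9.32, 6.10 and 6.56, the LCN2 day 7 arrays 8.80, 6.68 and 6.42, and the LCN2 day 0 arrays 8.33, 6.13 and 6.41. One array in each group, number 1, was far above the other two. Without the number in the model the differences from vehicle were -0.03 (95% interval -2.18 to 2.12) for LCN2 day 7 and -0.37 (-2.52 to 1.78) for LCN2 day 0. With the number as a block the intervals narrowed to -0.51 to 0.45 and -0.85 to 0.11, and neither difference passed. Among the arrays numbered 1 the order was vehicle, LCN2 day 7 and LCN2 day 0, with differences from vehicle of -0.52 and -0.99, which has no replicate check.

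The inflammatory ligands did not pass the test either. Ccl2, the main monocyte attractant, read 11.51, 11.96 and 11.91 on the vehicle arrays, 11.78, 11.92 and 11.81 with LCN2 from day 7, and 11.43, 12.11 and 12.24 with LCN2 from day 0. Ccl7, its neighbour on the chromosome, read 10.91, 11.53 and 11.59 in the vehicle group, 11.41, 11.59 and 11.44 in the LCN2 day 7 group and 10.93, 11.89 and 11.91 in the LCN2 day 0 group. Both ligands were lowest at number 1 in every group, and the spread was smallest in the LCN2 day 7 group, where the 3 Ccl2 values lay within 0.14. Ccl7 had the highest difference from vehicle of the 9 ligands, 0.14 ± 0.27 for LCN2 day 7 and 0.23 ± 0.27 for LCN2 day 0, and Ccl2 differed by 0.04 ± 0.21 and 0.13 ± 0.21. The SE fell to 0.17 for Ccl7 and 0.14 for Ccl2 with the number as a block, and neither passed. All 3 same-number pairs of Ccl7 were above 0 for LCN2 day 0, at 0.02, 0.36 and 0.32.

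Ccl3 and Ccl4 encode the macrophage inflammatory proteins 1 alpha and beta. Ccl3 read 10.05, 10.37 and 10.85 on the vehicle arrays, 10.07, 10.37 and 10.92 on the LCN2 day 7 arrays and 9.77, 10.69 and 10.94 on the LCN2 day 0 arrays. Ccl4 read 6.92, 7.38 and 7.77 in the vehicle group, 6.84, 7.29 and 7.61 in the LCN2 day 7 group and 6.55, 7.44 and 7.45 in the LCN2 day 0 group. For both genes number 1 was the lowest array and number 3 the highest in every group. For LCN2 day 7 the Ccl3 pairs differed by only 0.03, 0.01 and 0.07. The fitted differences from vehicle were 0.04 ± 0.34 and 0.05 ± 0.34 for Ccl3 and -0.11 ± 0.31 and -0.21 ± 0.31 for Ccl4. The RefSeq gene models of Ccl3 and Ccl4 share bases.

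In the fit without the number, Ccl6 and Ccl9, the CCR1 ligands, differed from vehicle by less than their standard errors. Ccl6 read 10.73, 9.22 and 9.55 on the vehicle arrays, 10.59, 9.22 and 9.42 on the LCN2 day 7 arrays and 10.70, 9.40 and 9.55 on the LCN2 day 0 arrays. Ccl9 read 12.79, 12.45 and 12.53 in the vehicle group, 12.73, 12.43 and 12.56 in the LCN2 day 7 group and 12.71, 12.50 and 12.39 in the LCN2 day 0 group. Number 1 was the highest array of each group for both. The differences from vehicle were -0.09 ± 0.50 and 0.05 ± 0.50 for Ccl6 and -0.02 ± 0.14 and -0.06 ± 0.14 for Ccl9, and the Ccl9 intervals, -0.33 to 0.30 and -0.37 to 0.26, were the narrowest of the 9.

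Counted over the ligands, 6 of 9 were below vehicle and 3 above it for LCN2 day 7, and 5 below and 4 above for LCN2 day 0. In no ligand did the LCN2 day 7 and vehicle arrays separate, which they did for 3.17% of all genes, and 1 ligand, Ccl17, separated for LCN2 day 0, against 5.49% of all genes in either direction. The LCN2 day 0 and LCN2 day 7 arrays separated for none of the 9, against 5.00% of all genes. The difference between these schedules ran from -0.34 ± 0.95 for Ccl24 to 0.14 ± 0.50 for Ccl6.

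**Figure D2:**
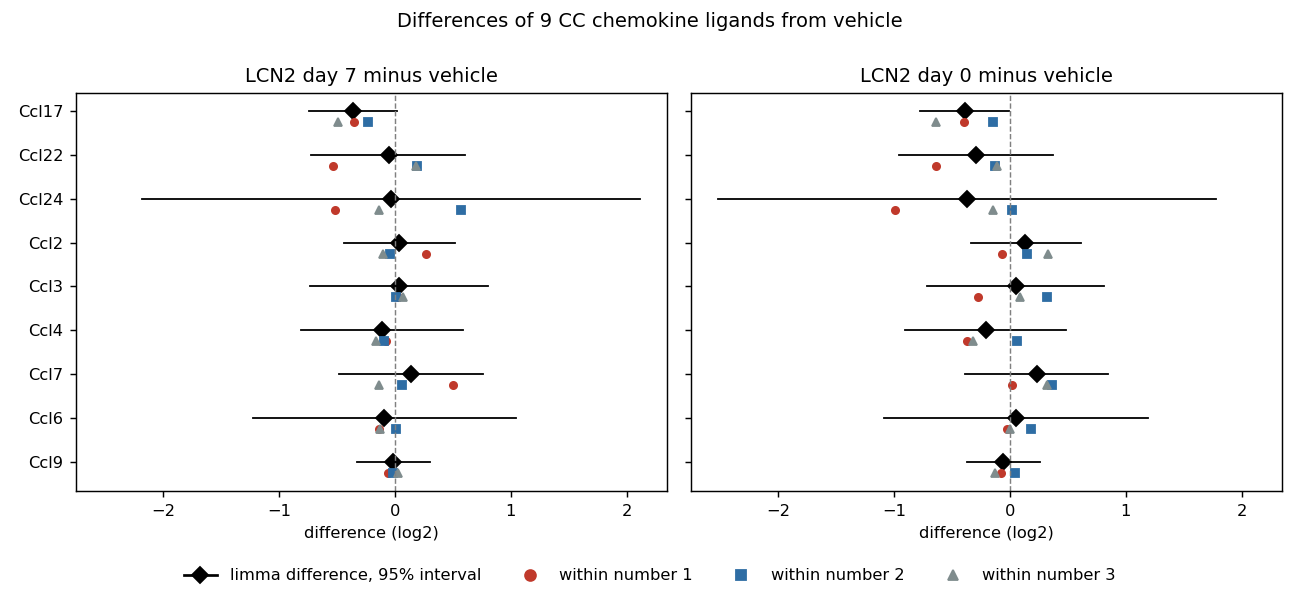
Difference from vehicle (log2, horizontal axis) of the 9 tested ligands for LCN2 day 7 (left) and LCN2 day 0 (right). Black diamonds and lines are limma differences with 95% intervals, and coloured points are differences within an array number; all 6 points of Ccl17 lie below 0, and the Ccl24 intervals span over 4 log2 units.

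The titles number the arrays of each group 1 to 3, and each number occurs in all 3 groups, so numbers can be compared with the group held in the model. Number 1 was set against numbers 2 and 3 with the knowledge that it stood apart. The labels do not say what a number marks, so the 3 arrays numbered 1 may stem from 1 source. The SE and p-values by number then measure the spread between arrays, and not that between sources. Ccl24 and Ccl6 were strongly higher on the arrays numbered 1, and Ccl3, Ccl4 and Ccl22 were lower. Of the 9 ligands, 3 were higher and 5 lower at the threshold of 0.05. On the whole array 33.2% of genes passed in either direction, 11.0% higher and 22.1% lower, and the count of 8 of 9 is to be read against that. The median over the 9 ligands was -0.417, against -0.0637 for all genes.

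Among the IL-4 induced ligands, the directions differed. Ccl24 was 5.41-fold higher on the arrays numbered 1 (2.44 ± 0.18, limma adjusted p = 0.00012): its levels were 8.33 to 9.32 there and 6.10 to 6.68 on the other 6 arrays. Within the vehicle, LCN2 day 7 and LCN2 day 0 groups the difference was 2.99, 2.25 and 2.06. Ccl22 was 1.52-fold lower (-0.60 ± 0.13, limma adjusted p = 0.00857), by -0.19, -0.91 and -0.70 within the groups. The Ccl22 call was lost without the LCN2 day 0 array numbered 1 (-0.55, adjusted p = 0.0574). Ccl17 differed by -0.19 ± 0.09 and did not pass (limma adjusted p = 0.159), although its 3 within-group differences, -0.19, -0.18 and -0.19, were nearly equal. Its means at numbers 1, 2 and 3 were 5.75, 5.77 and 6.09, so number 1 was close to number 2 and number 3 was higher.

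The constitutive ligands were both higher at number 1. Ccl6 was 2.43-fold higher (1.28 ± 0.08, limma adjusted p = 4.99e-05), with 10.59 to 10.73 on the arrays numbered 1 and 9.22 to 9.55 on the others, and differences of 1.35, 1.27 and 1.22 within the groups. Ccl9 was 1.2-fold higher (0.26 ± 0.08, limma adjusted p = 0.0326). Its call was lost when the arrays were normalized again (0.23, adjusted p = 0.0509) or centred on their medians (0.23, adjusted p = 0.0811). The 3 arrays numbered 1 lay above all others for Ccl9 as well, at 12.71 to 12.79.

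The tested inflammatory ligands were all lower at number 1. Ccl3 was 1.66-fold lower (-0.73 ± 0.11, limma adjusted p = 0.00228) and Ccl4 1.65-fold lower (-0.72 ± 0.10, limma adjusted p = 0.00128). Ccl7 was 1.49-fold lower (-0.57 ± 0.15, limma adjusted p = 0.0184) and Ccl2 1.34-fold lower (-0.42 ± 0.12, limma adjusted p = 0.0307). The monocyte attractants were uneven across groups: within the LCN2 day 7 group Ccl2 and Ccl7 differed by only -0.08 and -0.10, within the LCN2 day 0 group by -0.74 and -0.97. The within-group differences were -0.56, -0.58 and -1.04 for Ccl3 and -0.66, -0.61 and -0.90 for Ccl4, so every group showed the direction.

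Ccl8, the remaining inflammatory ligand, was dim and was left out of the test. It read 5.12, 5.36 and 4.50 on the arrays numbered 1 of the vehicle, LCN2 day 7 and LCN2 day 0 groups and 2.99 to 3.50 on the other 6 arrays. The arrays numbered 1 did not overlap the others, but all 9 values lay below the limit for dim genes (5.66), so no size or direction is drawn from them.

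Calls for Ccl24, Ccl6, Ccl3 and Ccl4 held in all 18 alternative settings, and that for Ccl22 in 17. Ccl7 kept its call in 14, Ccl2 in 10 and Ccl9 in 6 of the 18. Leaving out single arrays moved the count of ligands called from 8 to 5 (without the vehicle array numbered 1, or without the vehicle array numbered 3) or to 4 (without the LCN2 day 0 array numbered 1). The count of genes called moved from 3333 to 1777 without the vehicle array numbered 1 and to 1923 without the LCN2 day 0 array numbered 1. An F test over the 3 numbers, which singles out none of them, called 5 of 9 ligands, Ccl3, Ccl4, Ccl6, Ccl22 and Ccl24, and 23.0% of all genes. With no group term it also called Ccl7 and Ccl9, and 26.9% of all genes. Between numbers 2 and 3 the test called 0% of genes, and no ligand passed. At an unadjusted p under 0.05 there were 310 of 10042 genes and 4 of 9 ligands, Ccl3, Ccl6, Ccl17 and Ccl22, all lower at number 2. The lowest difference of number 2 from number 3 among the ligands was that of Ccl3, -0.43 ± 0.13 (limma adjusted p = 1).

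**Figure D3:**
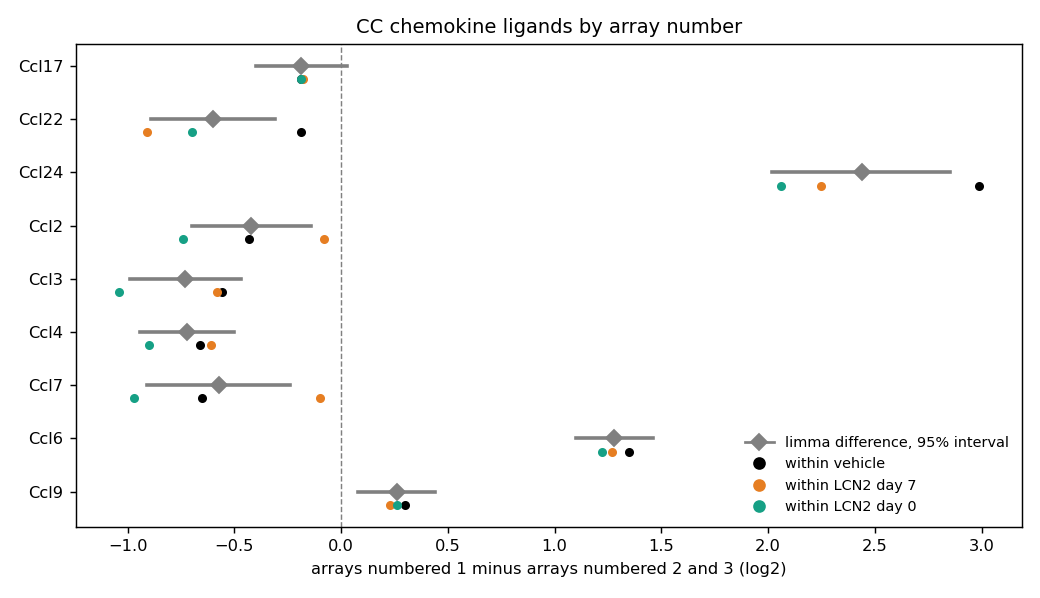
Difference (log2, horizontal axis) between the arrays numbered 1 and those numbered 2 and 3 for the 9 tested ligands. Grey diamonds and lines are limma differences with 95% intervals, and points are the differences within each group; Ccl24 and Ccl6 lie at 2.44 and 1.28 and all tested inflammatory ligands below 0.

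To set the classes against each other, each ligand's values were averaged within its class after the class mean over the 9 arrays was taken off. No test was made of these averages. The IL-4 induced class minus the inflammatory class was -0.15 for LCN2 day 7 and -0.37 for LCN2 day 0 relative to vehicle, and minus the constitutive class it was -0.10 and -0.35. On single arrays, the IL-4 induced minus inflammatory value ranged from -0.31 to 0.83 in the vehicle group, from -0.07 to 0.16 with LCN2 day 7 and from -0.58 to 0.41 with LCN2 day 0. The groups overlapped, each holding an array of every number. At numbers 1, 2 and 3 this value was 0.83, -0.31 and 0.01 for vehicle and 0.41, -0.58 and -0.43 for LCN2 day 0. LCN2 day 0 was thus below vehicle at every number. LCN2 day 7, at 0.16, -0.03 and -0.07, was below vehicle at numbers 1 and 3 and above it at number 2. Without the vehicle array numbered 1 the LCN2 day 7 value became 0.18 and the LCN2 day 0 value -0.04. That leaves the numbers unbalanced between groups. The IL-4 induced minus constitutive value had these directions at each number as well. At number 1 against numbers 2 and 3 the IL-4 induced class stood 0.70 above the inflammatory and -0.22 from the constitutive class. With the dim Ccl8 left out of the inflammatory class, the IL-4 induced minus inflammatory value was 1.16 in place of 0.70 by number, -0.17 for LCN2 day 7 and -0.40 for LCN2 day 0. The IL-4 induced average joins Ccl24 at 2.44 with Ccl22 at -0.60 and Ccl17 at -0.19.

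**Figure D4:**
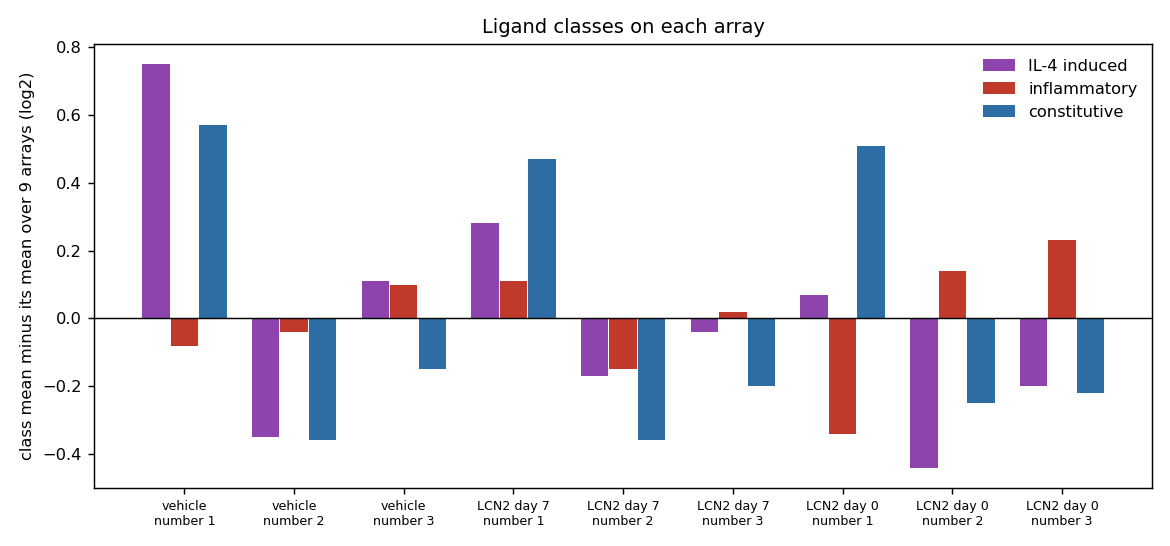
Mean level of each ligand class on each array minus its mean over the 9 arrays (log2, vertical axis). The constitutive class was above 0 on the 3 arrays numbered 1, at 0.57, 0.47 and 0.51, and below 0 on the other 6. The inflammatory class includes the dim Ccl8.

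The receptors of these ligands differed by number in opposite directions. Ccr2, the receptor for CCL2 and CCL7, was lower on the arrays numbered 1 (-2.39 ± 0.08, limma adjusted p = 3.97e-06), with 6.20 to 6.39 there and 8.60 to 8.81 on the others. Ccr1, the receptor for CCL6 and CCL9, was higher (1.45 ± 0.14, limma adjusted p = 0.000332), with 9.87 to 9.90 against 7.95 to 8.65. Ccr3, the receptor for CCL24, differed by -0.43 ± 0.16 and did not pass (limma adjusted p = 0.0707). Ccr4 and Ccr8 were dim, with mean levels of 3.18 and 3.73. Of the 8 tested genes in the receptor and scavenger list, 3 were higher and 2 lower, against 11.0% and 22.1% of all genes. None passed in the LCN2 comparisons, where the list ran from -0.16 for Cxcr2 to 0.09 for Ccr7 (day 7) and from -0.16 for Ccr2 to 0.22 for Ccrl2 (day 0).

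Of the 13 tested genes of IL-4 receptor signalling, 6 were higher and 2 lower at number 1, where 11.0% of all genes were higher and 22.1% lower. Il4ra, the receptor chain, was higher (1.21 ± 0.08, limma adjusted p = 6.02e-05), as was Egr2 (0.85 ± 0.11, limma adjusted p = 0.00128). Pparg was lower (-0.61 ± 0.08, limma adjusted p = 0.00109), and Klf4, a partner of STAT6, was the lowest of the list (-0.63). Stat6 itself differed by -0.15 ± 0.08 and Irf4 by -0.52 ± 0.20, neither past the threshold. With LCN2 none of the 13 passed. For day 7, 11 were below vehicle and for day 0, 12, with medians of -0.06 and -0.09. Over all genes the median difference was 0.00253 for day 7 and -0.0147 for day 0. Without its sign it was 0.0709 and 0.0847, and both comparisons share the vehicle arrays. The lowest was Batf3 at -0.22 for day 7 and Irf4 at -0.48 for day 0, and the highest Jak1 at 0.04 and Myc at 0.03.

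Of the 11 tested IL-4 effector genes, 4 were higher and 3 lower at number 1, the lower share being close to that of all genes. Chil3, a chitinase-like protein, was higher (1.51 ± 0.09, limma adjusted p = 3.93e-05), and so was Retnla, a secreted resistin-like protein (0.70 ± 0.12, limma adjusted p = 0.00297). Arg1, the arginase of IL-4 treated macrophages, was lower (-0.64 ± 0.13, limma adjusted p = 0.00717), and Cdh1, E-cadherin, had the lowest value (-1.57). Mrc1, the mannose receptor, differed by 0.01 ± 0.11. In the LCN2 comparisons 0 of 11 passed, and the list ran from -0.14 (Tgm2) to 0.06 (Mgl2) for day 7 and from -0.32 (Flt1) to 0.18 (Chil3) for day 0.

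**Figure D5:**
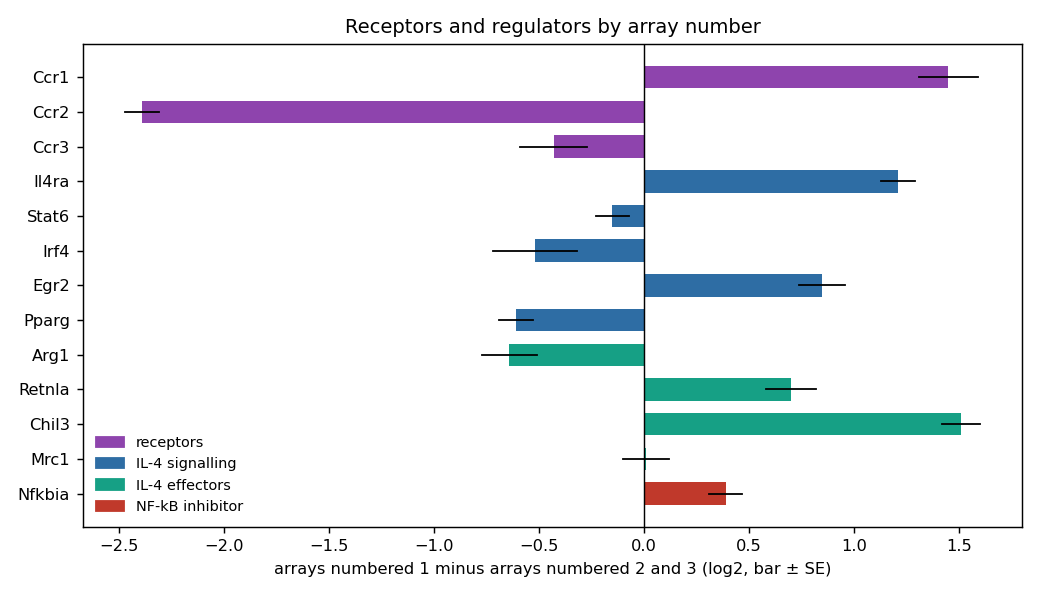
Difference (log2, horizontal axis) between the arrays numbered 1 and those numbered 2 and 3 for chemokine receptors, IL-4 signalling genes, IL-4 effectors and the NF-kB inhibitor Nfkbia. Bars start at 0 and black lines are ± SE; Ccr2 at -2.39 and Chil3 at 1.51 are the extremes.

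The NF-kB list was higher at number 1 in 7 of 10 tested genes and lower in 1, Cd40 (-0.46), while the tested inflammatory ligands were lower. Of all genes, 11.0% were higher and 22.1% lower. Nfkbia, an inhibitor that NF-kB itself induces, was higher (0.39 ± 0.08, limma adjusted p = 0.00652), and Bcl3 was the highest (1.49). With LCN2 the list ran from -0.33 (Bcl3) to 0.17 (Relb) for day 7 and from -0.23 (Bcl3) to 0.31 (Ptgs2) for day 0, with 0 of 10 called.

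Chemokines outside the 10 ligands were mostly higher at number 1. Of the 6 tested CXC and CX3C ligands 5 were higher and none lower, against 11.0% and 22.1% of all genes. They ran from Cx3cl1 at 0.20 to Cxcl16 at 1.48. Cx3cl1, which lies between Ccl22 and Ccl17, did not pass (limma adjusted p = 0.292). Of the 4 other CC ligands tested, Ccl5 was higher (0.50 ± 0.10, limma adjusted p = 0.00673), and Ccl12, Ccl21a and Ccl25 did not pass. In the LCN2 comparisons neither list had a gene called: differences ran from -0.28 (Ccl21a) to 0.19 (Ccl12) and from -0.35 (Cxcl3) to 0.14 (Pf4) for day 7, and from -0.30 (Ccl21a) to 0.63 (Ccl12) and from -0.33 (Cxcl16) to 0.38 (Pf4) for day 0. Among the proteases that trim chemokines, 1 of 3 tested, Mmp9, was higher at number 1 (2.21 ± 0.27, limma adjusted p = 0.000814), and 0 of 3 were called with LCN2.

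Markers of other cells and states moved with the number too. Their counts are to be read against 11.0% of all genes higher and 22.1% lower at number 1. All 6 tested neutrophil markers were lower at number 1, and the mean of the 7 genes in the table was 5.88 to 6.71 there against 7.46 to 7.93 on the other arrays. Monocyte markers were lower in 4 of 5, with list means of 6.12 to 6.53 against 7.23 to 7.61, and this list includes Ccr2. Cell cycle genes were lower in 10 of 11, with means of 7.60 to 8.24 against 8.64 to 9.01. Dendritic cell markers were higher in 4 of 5 tested, with means of 6.70 to 7.02 against 6.60 to 6.86, which overlap. Macrophage markers were higher in 3 and lower in 1 of 7, with means of 10.43 to 10.52 against 10.19 to 10.30. Of the mast cell and basophil list 1 of 2 tested genes, Gata2, was higher (0.98 ± 0.11, limma adjusted p = 0.000605), and 0 of 2 eosinophil and 0 of 1 fibroblast markers passed. The part of these lists in the ligand differences by number was not tested. With LCN2 no marker passed. For LCN2 day 7 and day 0 the median differences from vehicle were 0.45 and 0.48 for neutrophil markers. They were 0.25 and 0.35 for monocyte markers, 0.21 and 0.07 for cell cycle genes and -0.11 and -0.48 for dendritic cell markers. All 6 tested neutrophil markers were above vehicle in both comparisons, which share the vehicle arrays. Over all genes the median differences were 0.00253 and -0.0147. The neutrophil means ran from 5.88 to 7.52 for vehicle, 6.71 to 7.73 for LCN2 day 7 and 6.35 to 7.93 for LCN2 day 0. The lowest value of each group is its array numbered 1, so the overlap of these ranges follows from the split by number.

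The ligands that rose and fell together across the arrays were mainly those split by number, so r is also given after the mean of each number was taken off (within numbers). The r values describe 9 arrays that share these numbers. The genes named as most like a ligand were picked by r from 10041 tested genes (10042 for Ccl8). With so many genes and so few arrays, some high r values are expected from the search alone. Ccl2 and Ccl7, adjacent genes, had r = 0.98 over the levels and 0.95 after the number means were removed. Ccl22 and Ccl24, which went opposite ways by number (r = -0.62), had r = 0.85 within numbers, and Ccl4 and Ccl17 had 0.79. The genes most like Ccl24 over the levels were Stk10, Prkcb and Mamdc2, and within numbers Oard1, Gm9776 and Ehmt2. For Ccl17 they were Tmem87a, Tent4a and Slc39a10, and within numbers Yy1, Sp110 and Tctex1d2. For Ccl22 they were Gpaa1, Klhl9 and Ifrd2, and within numbers Myd88, Apex2 and Epb41l1. Over the levels, Ccl6 was nearest to Ctsl, Aplp2 and Bcap31, for which r within numbers was 0.87, 0.77 and 0.28. Ccl9 was nearest to Acox3, Lamp2 and Atp6v0d2 (r within numbers 0.90 to 0.96), and Ccl8 to Bach2, Ppic and Rnase2a (0.76 to 0.86). Ccl3 was nearest to Zfp131, Hectd4 and Prr11 (0.87 to 0.99) and Ccl4 to Gnai3, Fubp1 and Mia2 (0.92 to 0.99). Ccl2 was nearest to Ccl7, Alox5 and H4c12 (0.92 to 0.95), and Ccl7 to Alox5, H2ac10 and H4c12 (0.97 to 0.99).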

How the data were processed

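RNA from 9 samples of IL-4 treated macrophages was measured on 1-colour expression arrays. The authors deposited log2 expression levels for 22203 probe sets, made by RMA in oligo, an R package, per the submitters' processing notes, with no versions given in the sources used here. RMA corrects background, makes the arrays' distributions alike and summarises probes, so a shift of all genes between arrays is removed. Probe sets with 1 symbol (19572) gave 19505 genes, with the brightest kept for 55 genes. Genes whose mean was below the median of probe-set means (5.66) were left out, which left 10042. limma 3.58.1 in R 4.3.3 was fitted to all 9 arrays with 1 mean per group, or with group and number for the comparisons of numbers. The Benjamini-Hochberg adjustment covered every tested gene (threshold 0.05). Before that, the scripts were tested on simulated data. For LCN2 these data held no difference between numbers, so they do not show what the LCN2 comparisons could detect in the real arrays. The number of arrays limits the precision.

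All 9 correlations between deviations of same-numbered arrays of different groups lay above 0.1, between 0.156 and 0.82. By this rule equal numbers are taken to pair arrays. The LCN2 differences and intervals nevertheless come from the fit without the number unless the block is named, and same-number differences are given beside them. The number comes from the titles, which do not say what it marks. Arrays numbered 2 and 3 also correlated with each other above 0.1, at 0.201 to 0.687, and 5 of 9 arrays correlated best with their own number. The rule thus cannot tell number 2 from number 3, and for these the pairing rests on the titles.

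The ligands, the lists and the setting of number 1 against the others were chosen with earlier results of these data known. All 10 ligands are named, with regulators, receptors and effectors named whatever they showed, the extremes of pathway lists, and the 3 genes with the highest r. Promoter sequences come from RefSeq's GRCm38.p6 tables. Alternatives were other filters, variance models, array weights, normalizations and probe-set rules, the number as a block, and each array or all arrays numbered 1 left out.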

Additional observations from a re-analysis of the deposited data

How the results depend on the processing

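The LCN2 comparisons called 0 genes and 0 ligands under every alternative run. Of the 344 ligand differences from vehicle, 43 changed sign, none of them past the threshold, and Ccl17 was below vehicle under all 19. Leaving out 1 array moved the LCN2 day 7 difference of Ccl22 over -0.29 to 0.25, of Ccl24 over -0.78 to 0.97, of Ccl2 over -0.10 to 0.13, of Ccl3 over -0.20 to 0.25, of Ccl4 over -0.33 to 0.10, of Ccl6 over -0.51 to 0.36, of Ccl7 over -0.08 to 0.26 and of Ccl9 over -0.09 to 0.08. For LCN2 day 0 the ranges were -1.06 to 0.62 for Ccl24, -0.02 to 0.38 for Ccl2, -0.19 to 0.39 for Ccl3, -0.43 to 0.09 for Ccl4, -0.36 to 0.50 for Ccl6 and -0.14 to 0.04 for Ccl9. Leaving out an array unbalances the numbers between groups. With array weights, whose estimate stopped before its tolerance, LCN2 day 7 differences became 0.13 (Ccl22), 0.82 (Ccl24), -0.10 (Ccl2), 0.31 (Ccl6), -0.02 (Ccl7) and 0.08 (Ccl9), and LCN2 day 0 differences 0.22 (Ccl24) and 0.01 (Ccl9). Without the 3 arrays numbered 1, LCN2 day 7 differences were 0.19 (Ccl22), 0.22 (Ccl24), -0.07 (Ccl2), -0.04 (Ccl7) and 0.01 (Ccl9). Centring arrays on their medians gave 0.01 for Ccl9 (LCN2 day 7). With the number as a replicate block, the Ccl17 difference for LCN2 day 0 was -0.39 ± 0.11 (adjusted p = 0.944), and the block changed no call of the LCN2 comparisons. A block with no filter on dim genes, chosen after seeing the data, called 0 genes with LCN2. Leaving Ccl8 out of the inflammatory class was also chosen then.

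For number 1 against the others no ligand reversed. Leaving out 1 array gave 1777 to 3612 genes and 4 to 8 ligands called. Array weights gave 1666 genes and 5 ligands. The F test over numbers called 971 genes with array weights, 785 to 2611 genes without 1 array (4 to 6 ligands), and 8 ligands with a variance trend and robust fit. The cause of these moves was not tested.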
